A study of Mus musculus with 10 samples.

Results

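The genes described here encode the secreted Wnt ligands, the Frizzled receptors and their partners, the R-spondins and the secreted Wnt antagonists. They were chosen by symbol alone, as every gene in the count table named Wnt, Fzd, Sfrp, Dkk or Rspo with a number, together with Wif1, Axin2, Lrp5, Lrp6 and Lgr4. The rule found 46 of the 24454 genes in the table, among them 19 Wnt ligands, 10 Frizzled receptors, 4 secreted Frizzled-related proteins, 4 Dickkopf proteins and 4 R-spondins. Of these, 40 held enough counts to be tested, among 15543 genes tested in all. The other 6 (Wnt1, Wnt7a, Wnt8b, Wnt9b, Dkk1 and Dkk4) had between 2 and 94 counts over all libraries together, and no more than 27 in any of them.

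RNA was sequenced from tumor-free, whole-thickness back skin of 5 WT and 5 Zfp36ΔARE mice, the latter carrying the label TTP delta ARE, with 1 library per mouse. All were C57BL/6. Zfp36 encodes TTP, a protein that binds AU-rich elements in the 3′-UTR of mRNAs and speeds their decay, and Zfp36ΔARE mice lack a stretch of AU-rich sequence in the 3′-UTR of Zfp36 itself. The deletion lies in the endogenous gene and is present in every cell, so the comparison is not specific to keratinocytes or to any other cell type. Mice of both groups received DMBA, a mutagen that initiates skin lesions, as 1 dose of 400 nmol in 0.2 ml acetone at 7 weeks of age. From 1 week later the same skin received 10 nmol of TPA, a phorbol ester that promotes lesions, 2 times a week for 20 weeks. Untreated skin was not analysed here, so every difference below is one between genotypes after treatment.

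The target of the mutation followed the labels, with Zfp36 at 1824 to 2496 normalized counts in WT and 4195 to 6133 in Zfp36ΔARE skin. Libraries held between 19595035 and 36419573 counts, and the groups overlapped in depth. Counts from Y-linked genes were present in Zfp36ΔARE replicates 2 to 5 (3349 to 4262) and at most 1 in the other 6 libraries, so sex and genotype cannot be fully told apart. The skin also differed between the groups in its tissue markers. Of 13 hair shaft markers, 5 rose in the test, while all 13 had higher levels in every Zfp36ΔARE library than in any WT library. Their summed normalized counts ran from 3054 to 106149 in WT and from 167935 to 471845 in Zfp36ΔARE skin. By contrast, 12 of 14 skeletal muscle markers, 8 of 10 adipocyte markers, 8 of 8 endothelial markers, 13 of 14 macrophage markers and 6 of 9 fibroblast markers fell. Of 9 tested dermal papilla markers 2 rose and 3 fell, and of 7 basal keratinocyte markers 0 rose and 3 fell. Of 6 hair follicle bulge markers 0 rose and 2 fell, with scores (mean log2(CPM + 1)) of 5.82 to 5.94 in WT and 5.39 to 5.79 in Zfp36ΔARE skin. Over all genes tested, 15.3% rose, 19.1% fell and 23.1% did not overlap between the groups. With so few markers, the counts for papilla, basal keratinocyte and bulge are not read as differing from these shares. None of the markers was at 0 in any library. In such bulk samples, fewer cells of a type and less RNA per cell cannot be told apart.

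Wnt ligands are lipid-modified secreted proteins that bind Frizzled receptors. Together with the co-receptors Lrp5 and Lrp6, Frizzleds stabilize β-catenin, which enters the nucleus and activates target genes with Lef1 and Tcf7, while other Wnt signals run through the planar cell polarity proteins. Secreted Frizzled-related proteins and Wif1 bind the ligands, Dickkopf proteins act on Lrp5 and Lrp6, and R-spondins act through Lgr receptors to keep Frizzleds at the cell surface. In skin the pathway is best known for driving the formation and growth of hair follicles and for its part in the upkeep of epidermal stem cells.

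In Zfp36ΔARE skin, 10 of the 40 tested genes rose and 7 fell, as called by edgeR's quasi-likelihood test with a Benjamini-Hochberg adjusted p under 0.05. Among all tested genes the shares were 15.3% higher and 19.1% lower, so the share that rose lay above its background and the share that fell lay near it, with no test of either difference. A fold over 2 in addition was reached by 2 genes that rose (Wnt3a and Rspo4) and by 5 that fell (Wnt2, Wnt2b, Fzd9, Sfrp4 and Sfrp5), where 1.67% and 6.64% of all genes did so. The normalized counts of the groups did not overlap for 11 of the 40, as for 23.1% of all genes. Of the 7 tested secreted antagonists (Sfrp, Dkk and Wif1) 0 rose and 2 fell, of the 4 R-spondins 2 rose and 0 fell, and ligands and Frizzleds were split. The median log2 fold change was 0.17 over the 40 genes and 0.0076 over all genes tested.

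**Figure D1:**
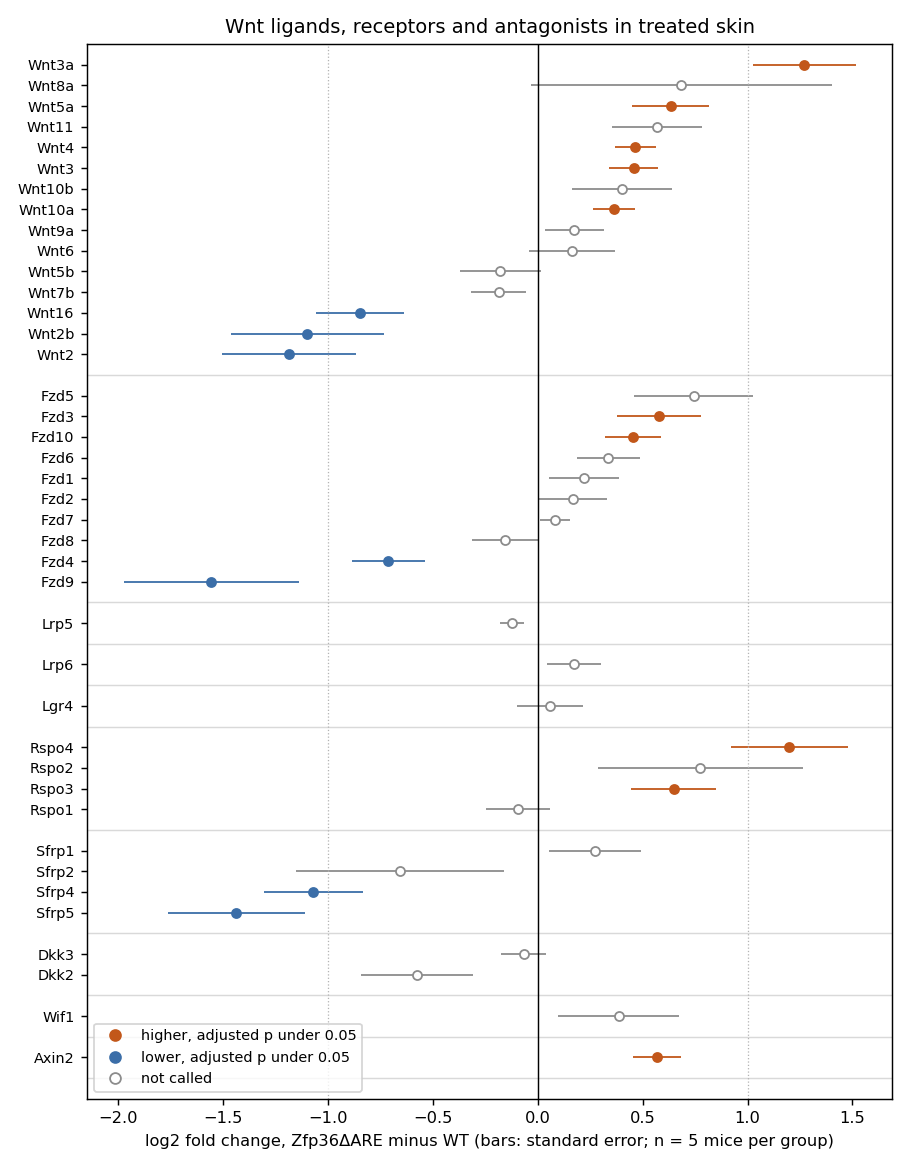
Log2 fold change of Zfp36ΔARE against WT skin for the 40 tested genes, arranged by class from ligands at the top to Axin2 at the bottom, with bars for the standard error and dotted lines at a fold of 2. Filled points mark the 10 genes that rose and the 7 that fell, from Fzd9 at -1.55 to Wnt3a at 1.27.

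The 15 tested ligands spanned a wide range of levels, given here per length as FPKM, the fragments per kilobase of gene scaled to library size. Wnt4, a ligand of the epidermis and many epithelia, was the most abundant in 10 of 10 libraries, at 17.4 ± 2.31 FPKM in WT and 24.1 ± 2.08 in Zfp36ΔARE skin (SD, n = 5). Wnt5a, the best-known ligand of β-catenin-independent signaling, came next in 9 of 10 libraries, at 12.3 ± 3.30 and 19.0 ± 2.64 FPKM. Wnt3, Wnt10a, Wnt11, Wnt10b and Wnt7b followed in WT, at means from 9.67 down to 6.58 FPKM, and neighbors in this order differed by less than their SDs. The remaining 8 tested ligands had WT means of at most 2.67 FPKM. Summed over the ligands, the level per length was 83.5 ± 10.1 FPKM in WT (73.4 to 95.0) and 109 ± 4.75 in Zfp36ΔARE skin (104 to 116), with no overlap. The order depends on the gene length used. With the longest annotated transcript in place of the length in the table, Wnt4 stayed first in WT, Wnt5a moved from place 2 to place 4 and Wnt7b from place 7 to place 3.

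**Figure D2:**
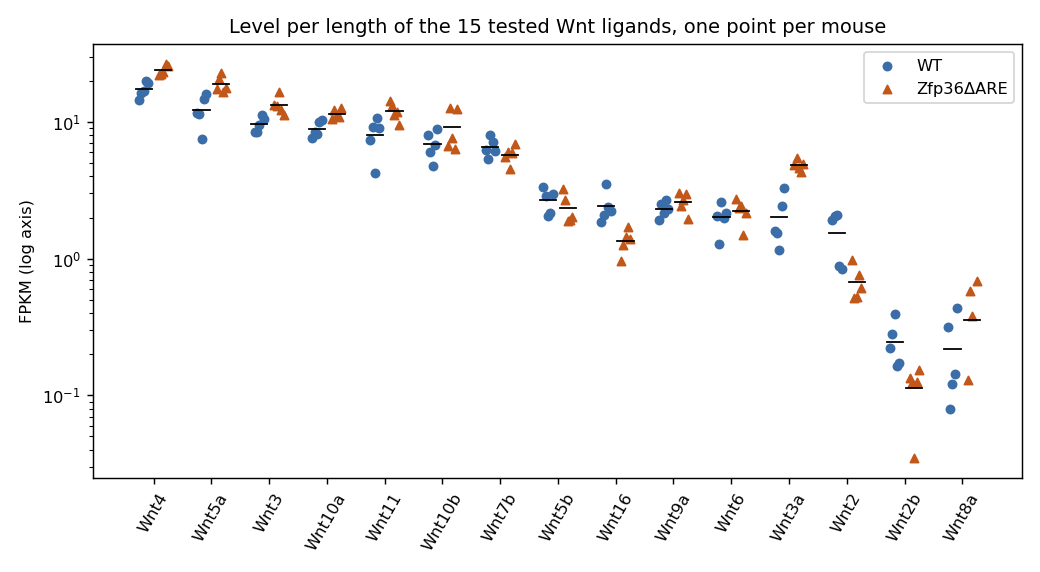
Level per length (FPKM, log axis) of the 15 tested Wnt ligands in each mouse, ordered by their WT mean, with WT as circles, Zfp36ΔARE as triangles and group means as lines; Wnt8a, at 0 counts in Zfp36ΔARE replicate 4, has no point there. Wnt4 leads in both groups, and Wnt3a, below Wnt5b, Wnt16, Wnt9a and Wnt6 in WT, lies above them in Zfp36ΔARE skin at 4.83 FPKM.

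Wnt3a, a ligand that activates β-catenin signaling in many settings, rose most among the ligands. Its normalized counts were 118, 112, 85.4, 178 and 242 in WT replicates 1 to 5 and 355, 403, 339, 315 and 363 in Zfp36ΔARE replicates 1 to 5. Every Zfp36ΔARE library was above every WT library, and WT replicates 4 and 5 were the highest of their group. The log2 fold change was 1.27 (SE 0.25, adjusted p = 0.00757, edgeR), or 2.41-fold. Its share of the summed ligand level went from 2.34% ± 0.73 (1.59 to 3.48) to 4.41% ± 0.27 (4.13 to 4.73), so it gained relative to the other ligands as well. Wnt3a lies on chromosome 11 beside Wnt9a, 16175 bases apart in the annotation of GRCm38, and Wnt9a had a log2 fold change of 0.17 (adjusted p = 0.346).

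The other 4 ligands that rose were Wnt4, Wnt5a, Wnt3 and Wnt10a, the most abundant ones in WT by the lengths in the table, although with the longest transcripts, or in Zfp36ΔARE skin, others stood between them. Wnt4 had 1472, 1664, 1725, 2044 and 1982 normalized counts in WT and 2256, 2290.3, 2367, 2724 and 2638 in Zfp36ΔARE skin. The groups did not overlap, and the log2 fold change was 0.47 (SE 0.10, adjusted p = 0.00889). Wnt5a had 1356, 1337, 877, 1724 and 1865 in WT against 2019.7, 2418, 2664, 1939 and 2062. WT replicate 3 was far below the other WT libraries, but all 5 Zfp36ΔARE libraries were above all WT libraries (log2 fold change 0.63, SE 0.18, adjusted p = 0.0241). With 1 library left out, Wnt5a stayed called in 7 of 10 fits, with adjusted p up to 0.0614. Wnt3, which like Wnt3a signals through β-catenin, had 705, 704, 793, 940.5 and 878 against 1100.2, 1091, 1379, 1009 and 940.1. The groups overlapped through Zfp36ΔARE replicate 5 and WT replicate 4, at 940.1 and 940.5, and the log2 fold change was 0.46 (SE 0.12, adjusted p = 0.0164). Wnt10a, a ligand needed for hair follicles and teeth, had 399.7, 444, 425, 525 and 544 against 548, 645, 585, 574 and 661, with a log2 fold change of 0.37 (SE 0.10, adjusted p = 0.0210). The groups of Wnt10a did not overlap but nearly met, at 544 in WT replicate 5 and 548 in Zfp36ΔARE replicate 1. Shares of the summed ligand level changed little for Wnt4 (20.9% and 22.0%), Wnt3 (11.6% and 12.1%) and Wnt10a (10.7% and 10.5%), with group means within 1 SD of each other.

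TTP is known to bind the heptamer UAUUUAU in 3′-UTRs, so the sites of this heptamer are printed for the ligands that changed, to let their surroundings be compared. Each line gives 25 bases of the GRCm38 reference on the strand of the transcript, within the annotated 3′-UTR in the last exon, with the heptamer in capitals as DNA. The longest annotated 3′-UTR of each gene was used, which can exceed the gene model that was counted. The Wnt16 site lies at position 2249 of its 3′-UTR and the last Wnt5a site at 4453, where the counted lengths of the whole genes are 1666 and 4373 bases. Whether the measured transcripts hold these 2 sites is not known. Among the ligands that rose, Wnt3a holds none, Wnt5a holds 4 (the first and last are shown), and Wnt4, Wnt3 and Wnt10a hold 1 each.
Wnt4 (chr4:137296901-137296925, plus strand): tcctcaagtTATTTATtgccaaaaa
Wnt5a, first site (chr14:28522975-28522999, plus strand): ggacccactTATTTATagaaagtac
Wnt5a, last site (chr14:28527384-28527408, plus strand): gataaagatTATTTATttttgttca
Wnt3 (chr11:103817881-103817905, plus strand): tataaatatTATTTATtatacaatg
Wnt10a (chr1:74804064-74804088, plus strand): cttaacagaTATTTATttttgcgct
Among the ligands that fell, Wnt2 and Wnt16 hold 1 each and Wnt2b none.
Wnt2 (chr6:17989203-17989227, minus strand): tttattggaTATTTATtggctattg
Wnt16 (chr6:22293492-22293516, plus strand): gacttggaaTATTTATgggtatttc
The heptamer therefore occurs in ligands that rose and in ligands that fell.

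The 3 ligands that fell were of low abundance. Wnt16, a ligand found in skin and bone, had 82.9, 92.9, 157, 107 and 99.1 normalized counts in WT and 42.7, 56.1, 63.7, 76.1 and 62.0 in Zfp36ΔARE skin. All WT libraries were above all Zfp36ΔARE libraries, with WT replicate 3 the highest (log2 fold change -0.85, SE 0.21, adjusted p = 0.0151). Wnt2, a ligand of mesenchymal cells, had 108, 116, 117, 49.5 and 47.5 in WT and 55.5, 29.0, 29.6, 42.7 and 34.3 in Zfp36ΔARE skin. WT replicates 1 to 3 were well above the rest, while WT replicates 4 and 5 lay below Zfp36ΔARE replicate 1 (log2 fold change -1.18, SE 0.32, adjusted p = 0.0201). Wnt2b, its close relative, rested on few counts, 21.2, 26.7, 37.8, 15.5 and 16.5 against 12.7, 11.8, 3.29, 12.0 and 14.5 after normalization. The lowest WT and the highest Zfp36ΔARE library were 15.5 and 14.5, so the groups were barely apart (log2 fold change -1.10, SE 0.37, adjusted p = 0.0408). With 1 library left out, Wnt2b stayed called in 3 of 10 fits.

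Among the 7 tested ligands that were not called, Wnt11, a ligand of β-catenin-independent signaling, had the lowest adjusted p. It had 625, 776, 359, 908 and 769.7 normalized counts in WT and 1215, 1106, 964, 1009 and 806 in Zfp36ΔARE skin, with WT replicate 4 above Zfp36ΔARE replicate 5 (log2 fold change 0.57, SE 0.21, adjusted p = 0.0602). Wnt10b, which acts in hair follicles and adipose tissue, was uneven within both groups, at 283 to 528 in WT and 376 to 753 in Zfp36ΔARE skin (log2 fold change 0.40, adjusted p = 0.207). Wnt7b, an epithelial ligand, had a log2 fold change of -0.19 (adjusted p = 0.275), although its share of the summed ligand level was lower in all Zfp36ΔARE libraries (4.06% to 6.25%) than in WT (6.43% to 10.97%). The other 4 (Wnt5b, Wnt6, Wnt8a and Wnt9a) had log2 fold changes from -0.18 to 0.68.

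The 10 Frizzled receptors were all tested. Fzd1 or Fzd6 was the most abundant per length in 9 of 10 libraries, and Fzd4 was in the remaining one, WT replicate 3. Fzd4, a receptor with a known role in blood vessels, fell. Its normalized counts were 1693, 1305, 2419.6, 1437 and 1202 in WT and 923, 945, 1164, 945 and 941 in Zfp36ΔARE skin. Every WT library was above every Zfp36ΔARE library, WT replicate 3 stood highest, and Zfp36ΔARE replicates 1, 2, 4 and 5 were close together (log2 fold change -0.71, SE 0.17, adjusted p = 0.0146). Its share of the summed Frizzled level went from 13.3% (9.43 to 23.2) to 6.84% (5.79 to 8.28). All 8 endothelial markers fell with it, with summed normalized counts of 5481 to 12106 in WT and 3272 to 4318 in Zfp36ΔARE skin, and their part in the result was not tested. Fzd4 holds 2 of the heptamers described above, which shows that a transcript that fell can carry more than one.
Fzd4, first site (chr7:89409633-89409657, plus strand): ggcctggagTATTTATatgatgcct
Fzd4, second site (chr7:89409979-89410003, plus strand): aacttcagtTATTTATtgattcatg

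Fzd9, a receptor of muscle, bone and nerve cells, had the most negative log2 fold change of the 40 genes. It had 62.6, 26.7, 154, 50.5 and 55.7 normalized counts in WT and 21.7, 30.8, 24.2, 21.4 and 18.5 in Zfp36ΔARE skin. WT replicate 3 was far above all others, and WT replicate 2 lay within the Zfp36ΔARE range (log2 fold change -1.55, SE 0.42, adjusted p = 0.0197). Skeletal muscle markers moved in the same way, at 1138760 summed normalized counts in WT replicate 3, 239814 to 600356 in the other WT libraries and 145838 to 302019 in Zfp36ΔARE skin, and their part in the result was not tested. Without WT replicate 3 the log2 fold change of Fzd9 was -1.05.

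Fzd10 and Fzd3 rose. Fzd10 had 1486, 1322, 1065, 1751 and 1822 normalized counts in WT and 1851, 2248, 2113, 1893 and 2095 in Zfp36ΔARE skin, with no overlap (log2 fold change 0.45, SE 0.13, adjusted p = 0.0270). Fzd3, which works with the planar cell polarity proteins in the orientation of hairs and nerve fibers, had 441, 725, 344, 664 and 522 against 1036, 802, 807, 750.3 and 628. WT replicates 2 and 4 reached into the Zfp36ΔARE range (log2 fold change 0.58, SE 0.20, adjusted p = 0.0468). With 1 library left out, Fzd10 stayed called in 5 and Fzd3 in 3 of 10 fits, with adjusted p up to 0.0639 and 0.103, and with no filter on low counts Fzd3 was not called. Fzd5, a receptor of epithelia and vessels, had a larger difference but was not called. Its normalized counts were 1075, 1711, 487, 1703 and 1227 in WT and 2559, 2114, 1915, 2143 and 1656 in Zfp36ΔARE skin, with WT replicates 2 and 4 above Zfp36ΔARE replicate 5 (log2 fold change 0.74, SE 0.28, adjusted p = 0.0653). The remaining 5 (Fzd1, Fzd2, Fzd6, Fzd7 and Fzd8) had log2 fold changes from -0.16 to 0.34, and the most abundant, Fzd1, had 0.22 (SE 0.17, adjusted p = 0.320).

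The co-receptors and Lgr4 were not called. Lrp5 had 3185 to 3341 normalized counts in WT and 2665 to 3219 in Zfp36ΔARE skin (log2 fold change -0.12, SE 0.058, adjusted p = 0.122). Lrp6 had 3638 to 5106 and 3744 to 5789 (log2 fold change 0.17, SE 0.13, adjusted p = 0.314). Lgr4, an R-spondin receptor, had 1968 to 3478 and 2519.6 to 3672 (log2 fold change 0.057, SE 0.16, adjusted p = 0.797). The groups overlapped for all 3.

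R-spondins changed in their makeup. Rspo4, the family member known for nail development, had 82.0, 150.2, 80.5, 184 and 140.3 normalized counts in WT and 350.0, 255, 384, 307 and 169 in Zfp36ΔARE skin. Zfp36ΔARE replicate 5 was below WT replicate 4, and the other 4 Zfp36ΔARE libraries were above all WT libraries (log2 fold change 1.20, SE 0.28, adjusted p = 0.0124), a 2.30-fold difference. Rspo3, a mesenchymal and vascular R-spondin, had 58.9, 53.3, 75.7, 47.6 and 58.8 against 79.4, 114, 95.5, 60.1 and 111. WT replicate 3 exceeded Zfp36ΔARE replicate 4 (log2 fold change 0.65, SE 0.20, adjusted p = 0.0324), and with 1 library left out Rspo3 stayed called in 3 of 10 fits. Rspo1, the most abundant R-spondin per length in WT, had 184 to 277 and 159 to 251, with a log2 fold change of -0.093 (SE 0.15, adjusted p = 0.650). Rspo2, a product of the dermal papilla at the base of the hair follicle, ranged from 12.9 to 56.2 in WT and from 22.5 to 89.6 in Zfp36ΔARE skin (log2 fold change 0.78, SE 0.49, adjusted p = 0.230). The summed level per length of the R-spondins was 7.92 ± 0.58 FPKM in WT (7.11 to 8.56) and 11.05 ± 1.47 in Zfp36ΔARE skin (9.65 to 13.2). Rspo1 made up 48.9% to 68.0% of that sum in WT and 31.6% to 44.6% in Zfp36ΔARE skin, with no overlap, whereas Rspo4 made up 15.3% to 36.3% and 27.6% to 53.8%.

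**Figure D3:**
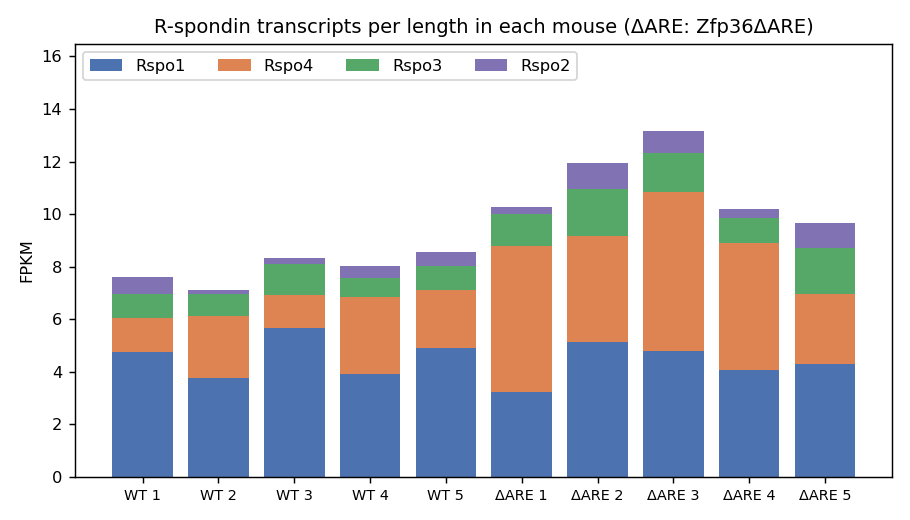
Stacked bars of the level per length (FPKM) of the 4 R-spondins in each of the 10 mice. The sum is 7.11 to 8.56 FPKM in WT and 9.65 to 13.2 FPKM in Zfp36ΔARE skin, and the Rspo4 segment is the largest in Zfp36ΔARE replicates 1, 3 and 4.

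Of the secreted antagonists, only Sfrp4 and Sfrp5 were called, and both fell. Secreted Frizzled-related proteins carry a Frizzled-like ligand-binding domain and act as decoys. Sfrp4 had 259.7, 328, 217, 209.6 and 149 normalized counts in WT and 140.1, 121, 69.2, 94.8 and 128 in Zfp36ΔARE skin. The groups did not overlap, but WT replicate 5 was close to Zfp36ΔARE replicate 1 (log2 fold change -1.07, SE 0.24, adjusted p = 0.0106). Sfrp5, also known as a product of adipose tissue, had 179.6, 125, 284, 104 and 114 against 34.5, 66.1, 83.5, 48.1 and 65.9. All WT libraries were above all Zfp36ΔARE libraries, with WT replicate 3 the highest (log2 fold change -1.44, SE 0.33, adjusted p = 0.0113). Adipocyte markers moved with it, at summed normalized counts of 58020 to 119491 in WT and 41306 to 53670.1 in Zfp36ΔARE skin, and their part in the result was not tested. The adipocyte, endothelial and skeletal muscle sums were all highest in WT replicate 3, as were Fzd4, Fzd9 and Sfrp5. None of these genes therefore moved with 1 of these tissues alone.

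The abundant antagonists were not called. Sfrp1 made up 39.9% of the summed antagonist level per length in WT and 46.8% in Zfp36ΔARE skin, and had a log2 fold change of 0.27 (SE 0.22, adjusted p = 0.346). Dkk3, an atypical Dickkopf family member, had 1156 to 1429 normalized counts in WT and 1046 to 1484 in Zfp36ΔARE skin (log2 fold change -0.067, SE 0.11, adjusted p = 0.644). Wif1, a ligand-binding antagonist of the follicle mesenchyme, was uneven in both groups. It had 1145, 597, 464, 820.2 and 1144 in WT and 722, 1371, 1219, 746 and 1396 in Zfp36ΔARE skin (log2 fold change 0.39, SE 0.29, adjusted p = 0.309). The sum over the antagonists was 72.4 ± 8.37 FPKM in WT and 75.2 ± 5.56 in Zfp36ΔARE skin. Sfrp4 and Sfrp5 made up 6.90% and 4.66% of it in WT. Dkk2 and Sfrp2 had log2 fold changes of -0.58 and -0.66, with adjusted p of 0.112 and 0.314.

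Axin2, a feedback inhibitor of the β-catenin pathway and its most widely used target gene, rose. It had 1160.4, 1024, 1275, 1219 and 1309 normalized counts in WT and 1590.3, 2133, 1938, 1395 and 1826 in Zfp36ΔARE skin. All Zfp36ΔARE libraries were above all WT libraries, and replicates 1 and 4 were the lowest of the Zfp36ΔARE group (log2 fold change 0.57, SE 0.11, adjusted p = 0.00807), a 1.48-fold difference. Its 3′-UTR holds the heptamer 2 times, shown because this transcript rose in mice with more Zfp36 mRNA.
Axin2, first site (chr11:108949622-108949646, plus strand): agcctgaacTATTTATtcaaaacat
Axin2, second site (chr11:108949773-108949797, plus strand): ccttactgaTATTTATtgaacagtc

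**Figure D4:**
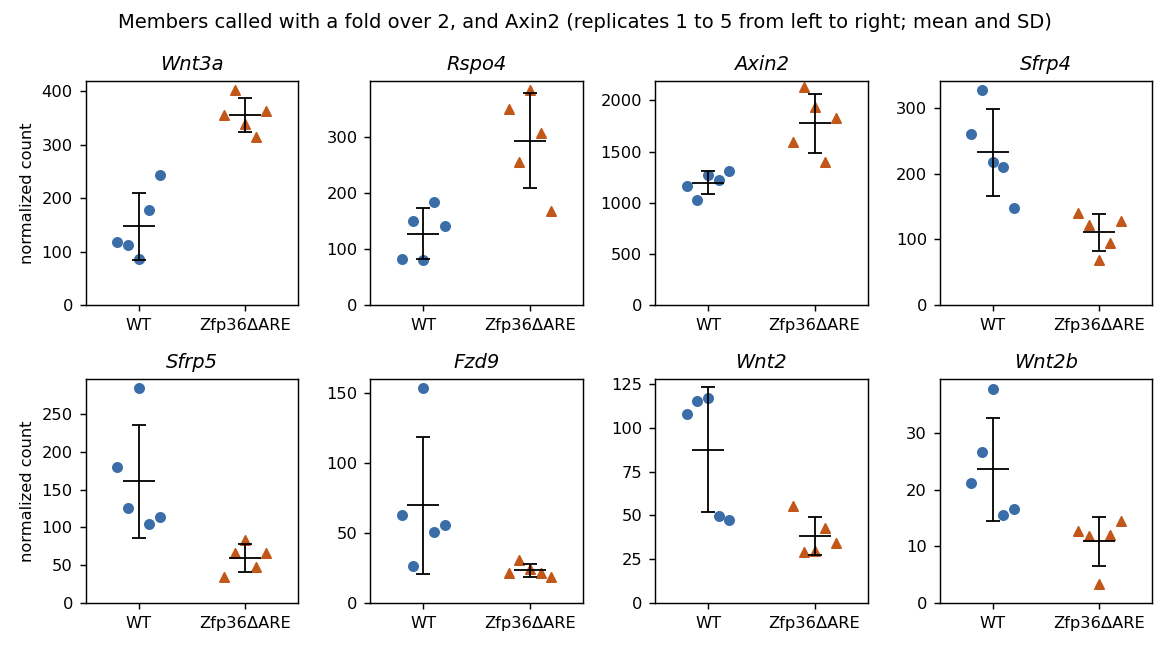
Normalized counts of the 7 genes called with a fold over 2 and of Axin2, with 1 point per mouse, replicates 1 to 5 from left to right, and the mean and SD in black. Wnt3a and Axin2 separate the groups completely, Rspo4 overlaps through Zfp36ΔARE replicate 5, and Fzd9 is spread in WT from 26.7 to 154.

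The other genes of the pathway, from lists that also give its target genes, moved as follows, to be read against the 15.3% higher and 19.1% lower over all genes. Of 13 tested β-catenin target genes outside the set, 7 rose and 0 fell, with a median log2 fold change of 0.36. Those that rose were Lef1 and Tcf7, the DNA-binding partners of β-catenin, and the feedback regulators Nkd1, Nkd2, Rnf43, Znrf3 and Bambi. The 6 that were not called were Ccnd1, Myc, Notum, Tnfrsf19, Apcdd1 and Lgr5, with log2 fold changes from -0.10 (Lgr5) to 0.33 (Ccnd1). The lists share genes and are not separate evidence, as Lef1 and Tcf7 also count among the nuclear components and Rnf43 and Znrf3 among the genes of receptor turnover. Tcf7 had 420 to 785 normalized counts in WT and 1216 to 2219 in Zfp36ΔARE skin (log2 fold change 1.34, SE 0.21, adjusted p = 0.00516). Lef1 had 321, 832, 1029, 1221 and 1404 in WT when sorted by size, and 1570.0 to 2781 in Zfp36ΔARE skin (log2 fold change 1.16, SE 0.33, adjusted p = 0.0236). Bambi, also a decoy receptor of the TGF-β family, had 155 to 1441 and 2395 to 3579.7 (log2 fold change 1.58, SE 0.47, adjusted p = 0.0279). With the hair shaft score as a further term Tcf7, Lef1 and Bambi were not called, with log2 fold changes of 0.83, 0.30 and 0.24. With 1 library left out, Tcf7 stayed called in 10 of 10 fits, Lef1 and Znrf3 in 8 and Bambi in 6.

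Of 12 tested nuclear components 6 rose and 2 fell, where the co-repressor Tle2 had a log2 fold change of -0.41 (adjusted p = 0.00830) and Tle3 and Tle4 were among those that rose. Of 4 tested genes of ligand secretion, 1 rose, Wls, the carrier that brings Wnts to the cell surface (log2 fold change 0.51, SE 0.10, adjusted p = 0.00807), while Trabd2b had -0.39 (adjusted p = 0.0629). Of 10 tested genes for co-receptors and receptor turnover 3 rose and 0 fell, among them the Frizzled-removing ligases Rnf43 (0.66, adjusted p = 0.00770) and Znrf3 (0.36, adjusted p = 0.0219). Of 7 tested antagonists outside the set 0 rose and 3 fell, among them Sostdc1 (-0.52, adjusted p = 0.0191) and Serpinf1 (-0.59, adjusted p = 0.0310). Of 10 tested cytoplasmic components 2 rose and 0 fell, namely the kinases Csnk1e (0.64, adjusted p = 0.0139) and Gsk3a (0.22, adjusted p = 0.0296). Of 11 tested planar cell polarity genes 4 rose and 1 fell, with log2 fold changes of 0.67 for Vangl2 (adjusted p = 0.0178) and -0.79 for Celsr3 (adjusted p = 0.0306). With 1 library left out, Gsk3a and Celsr3 stayed called in 3 of 10 fits and Serpinf1 in 6, while Wls, Rnf43, Tle2, Sostdc1, Csnk1e and Vangl2 stayed called in 10. With the hair shaft or the skeletal muscle score as a further term, none of the called pathway genes given here with values stayed called. The medians of these lists lay between -0.52, for the antagonists, and 0.26, for secretion.

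The hair shaft markers also differed within WT skin, and the WT library with the lowest score was the extreme one for some of the genes described above but not for others. The hair shaft score, the mean log2(CPM + 1) of the 13 markers, was 5.27, 7.36, 2.74, 7.76 and 7.76 in WT replicates 1 to 5 and 8.79, 9.15, 9.69, 8.72 and 8.55 in Zfp36ΔARE replicates 1 to 5. WT replicate 3, with the lowest score, was the lowest WT library for Wnt3a, Wnt5a, Rspo4, Fzd3 and Fzd10, which rose, and the highest for Wnt2, Wnt2b, Wnt16, Fzd4, Fzd9 and Sfrp5, which fell. It lay within the WT range for Wnt3, Wnt4, Wnt10a, Sfrp4 and Axin2, and it was the highest WT library for Rspo3, which rose. It was the lowest or highest of the 5 WT libraries for 26 of the 40 genes (65.0%), a share near that over all genes tested (64.8%). WT replicate 1, with the next lowest score, was next to WT replicate 3 in order for Rspo4, Fzd3, Fzd4, Fzd9 and Sfrp5. By contrast, it lay above WT replicate 2 for Wnt3a (118 and 112), Wnt5a (1356 and 1337) and Fzd10 (1486 and 1322), and was the lowest WT library for Wnt16 (82.9). With the score as a further term beside genotype, 0 of the 17 genes stayed called in the edgeR fit (13 genes in all were, and 5 of the 40 had an unadjusted p under 0.05). All 17 kept their direction, and the median size of their log2 fold changes was 0.47 in place of 0.71. Axin2 (0.58), Sfrp4 (-0.98) and Rspo3 (0.90) kept or exceeded most of their size, whereas Wnt5a (0.13), Fzd3 (0.12) and Fzd10 (0.13) did not. Because the scores of the groups do not overlap, such a fit cannot tell genotype and score apart.

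**Figure D5:**
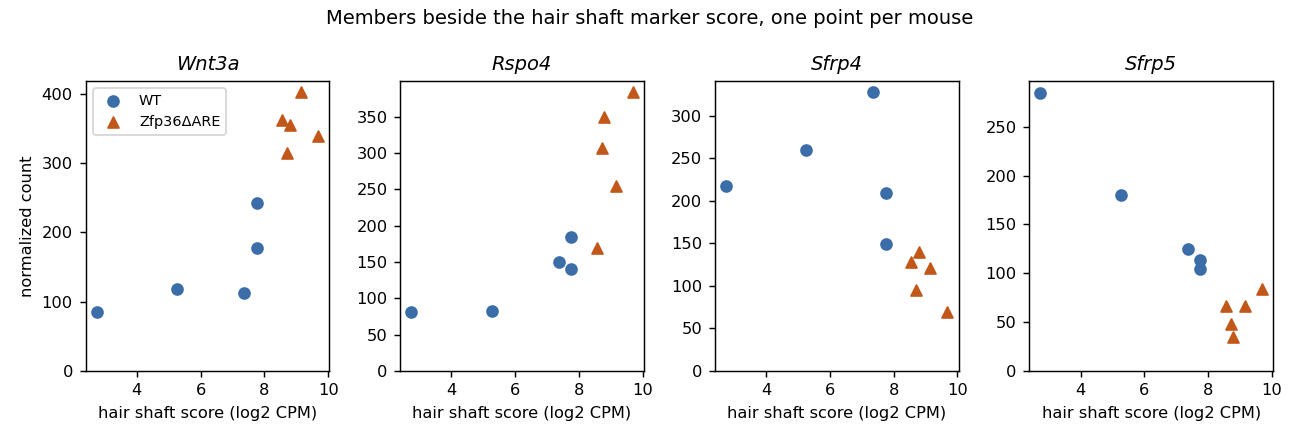
Normalized counts of Wnt3a, Rspo4, Sfrp4 and Sfrp5 (vertical axes) against the hair shaft score (mean log2(CPM + 1) of 13 markers), with WT mice as circles and Zfp36ΔARE mice as triangles. WT scores run from 2.74 to 7.76 and Zfp36ΔARE scores from 8.55 to 9.69, and Sfrp5 is highest in the WT mice with the lowest scores.

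With a skeletal muscle score in place of the hair shaft score, 0 of the 17 stayed called as well (8 genes in all were, and 9 of the 40 had an unadjusted p under 0.05). All kept their direction, and the median size of their log2 fold changes was 0.55. Without WT replicates 1 and 3, which had the lowest hair shaft scores, 9 of the 17 remained called, namely Wnt3a, Wnt4, Wnt16, Fzd4, Rspo3, Rspo4, Sfrp4, Sfrp5 and Axin2. Against the 5 WT libraries, Zfp36ΔARE replicate 1, the only library of its group without Y-linked counts, lay beyond every WT library in the called direction for 16 of the 17 genes, the exception being Wnt2. Over all genes called in the comparison this share was 91.6%, and for the 17 genes the other Zfp36ΔARE libraries gave 82.4% to 100%. Replicate 1 was itself used in calling these genes, so its position cannot tell genotype and sex apart. A fit of WT against that library alone called 0 genes in all, with 10 of the 42 genes then tested at an unadjusted p under 0.05. In that fit the median size of the log2 fold changes of the 17 genes was 0.73, against 0.71 in the main comparison. Of the 17, 10 were smaller and 7 were at least as large. Their median SE was 0.38 against 0.20. The dermal papilla score, from the follicle mesenchyme, overlapped between the groups (3.88 to 4.32 in WT and 3.65 to 4.11 in Zfp36ΔARE skin). Its markers went both ways, with Corin and Prdm1 called higher and Sox18, Vcan and Lepr called lower.

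Across the annotated 3′-UTRs of the set, 21 of the 40 tested genes (52.5%) hold at least 1 TATTTAT heptamer on the transcript strand, where 29.5% of the 14408 tested genes with an annotated 3′-UTR do. The median 3′-UTR is also longer, at 1731.5 bases against 1140.0 bases. Among the genes that rose 7 of 10 hold it, with 13 sites, among those that fell 3 of 7, with 4 sites, and among those not called 11 of 23, with 15 sites. The median log2 fold change was 0.37 for tested members with the heptamer and 0.057 for those without, while over all genes it was 0.0034 and 0.0081. A match describes letters in the longest annotated 3′-UTR of a gene and not a measured site of TTP binding.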

How the data were processed

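Total RNA from treated back skin of 5 WT and 5 Zfp36ΔARE mice was sequenced on the Illumina platform. Per the study's methods, the authors dropped reads whose mean quality was below 20, mapped the others to mm10 with STAR (2.5.2b), and counted fragments per gene with featureCounts of Subread (1.5.0-p1). The deposited values are raw counts per gene without normalization, beside the gene length that the authors' counting gave (another, non-expression value, in bases). Strand and the handling of fragments that match several genes are not given in the sources used here, so overlapping and antisense genes cannot be told apart from the genes named. A further 2 rows without a gene name, 7.38e-05% of all counts, were left out.

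These counts were scaled by TMM in edgeR 4.0.16 (R 4.3.3), filtered with filterByExpr, and compared between genotypes by the quasi-likelihood test over 15543 genes, with no other term and with Benjamini-Hochberg adjustment. Calls needed an adjusted p under 0.05. The SE given for edgeR fits was derived from the test, as the size of the log2 fold change divided by the square root of its F statistic. Normalized counts are counts scaled to the mean of the effective (TMM) library sizes. FPKM was computed from the counts, the deposited lengths and the same effective library sizes. The smallest chi-square per degree of freedom between libraries of a group was 21.6, so no library appeared to be deposited more than once. Nothing states that mice were independent beyond their separate libraries, and p-values set the difference between genotypes against the spread between these samples.

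Replicate numbers gave no sign of pairing the samples. Deviations of same-numbered libraries correlated between -0.18 and 0.085, and those of differently numbered libraries between -0.32 and 0.29. With 5 libraries per group such a check cannot exclude pairing, and the paper states that controls were littermates. Tested on simulated data, edgeR recovered 83% of genes changed 2-fold among 15456 genes, with 7.85% false calls. DESeq2 1.42.0 recovered 90% with 23.5% false calls, and limma-voom 3.58.1 recovered 79% with 7.03% false calls. The simulation changed 100 tested genes 2-fold and 98 by a log2 fold change of 2, far fewer than the 5335 called here. It also drew each gene independently, so these rates need not hold for these data.

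The members, lists, tests and alternatives were chosen with earlier results of these data known. Genes named by rule were members called with a fold over 2, the member with the highest mean count in each class, Wif1, Axin2, Lrp5, Lrp6 and Lgr4, and up to 2 genes with the smallest adjusted p in each pathway list. The other members and list genes named with values, among them Lef1 and Bambi, were picked after their values were seen. Positions and 3′-UTRs came from GENCODE M21 on GRCm38, where 46 of 46 genes matched by symbol and Entrez ID. For each gene the longest 3′-UTR among its protein-coding transcripts was taken. Alternatives were other tools (DESeq2, limma-voom), other scalings (DESeq2's size factors, upper quartile), other filters (none, or a minimum of 10 counts per library), a replicate block, fewer libraries, and tissue scores as covariates. Other experiments of the study were not analysed here.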

Additional observations from a re-analysis of the deposited data

Results flagged for a closer look

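In 5 of 80 groups of 5 libraries (40 genes in each genotype), 1 library stood apart from the others of its group by Dixon's criterion at the 95% level, where chance alone flags about 4. WT replicate 3 stood above the rest of its group for Fzd9, at 153.7 normalized counts against 26.7 to 62.6, and for Sfrp2, at 340.4 against 119.4 to 161.6. Zfp36ΔARE replicate 3 stood above its group for Fzd4, at 1164 against 923 to 945, and below it for Wnt2b, at 3.29 against 11.8 to 14.5. For Fzd2, Zfp36ΔARE replicate 1 was at 1389 normalized counts, with the others of its group at 792 to 942. The part of tissue composition, sex and counting error in these values was not tested.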

How the results depend on the processing

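Over 21 alternatives, 0 of the 17 called genes changed direction, while 18 of the 23 tested genes that were not called did so at least once. The counts of 10 higher and 7 lower genes (2 and 5 with a fold over 2) were 12 and 7 with DESeq2 and with limma-voom (Fzd5 and Wnt11 added), 10 and 7 with DESeq2's size factors and with upper-quartile scaling, 9 and 6 with no filter, and 10 and 6 with at least 10 counts in every library. Wnt2b was lost under both of these, and Fzd3 with no filter. Over all genes tested, 15.3% were called higher and 19.1% lower in the main fit. These shares were 19.7% and 21.6% with DESeq2, 15.8% and 18.4% with limma-voom, and 9.77% and 14.2% with no filter. Leaving out 1 library gave 5 to 11 higher, 5 to 7 lower, 2 higher with a fold over 2 in each fit and 3 to 5 lower with a fold over 2, and a median log2 fold change of 0.10 to 0.25. Without WT replicate 1 there were 6 higher, without Zfp36ΔARE replicate 2 there were 5 higher, and without Zfp36ΔARE replicate 3 there were 6 higher. The share of all tested genes called higher fell as well, to 8.57%, 8.41% and 8.08%, respectively. Without any 1 of WT replicate 2, Zfp36ΔARE replicate 2 and Zfp36ΔARE replicate 3 there were 3 lower with a fold over 2. Called in all 10 of these fits were Wnt3a, Wnt3, Wnt4, Wnt16, Fzd4, Fzd9, Rspo4, Sfrp4, Sfrp5 and Axin2, in 9 Wnt2 and Wnt10a (lost without Zfp36ΔARE replicate 2), in 7 Wnt5a (lost without WT replicate 1, Zfp36ΔARE replicate 2 or 3), in 5 Fzd10 (lost without WT replicate 1 or 2, Zfp36ΔARE replicate 2, 3 or 5) and in 3 Fzd3, Rspo3 and Wnt2b. Without WT replicates 1 and 3 there were 5 higher and 4 lower (1 and 1 with a fold over 2), where 6.87% and 9.06% of all genes were called. WT against Zfp36ΔARE replicate 1 alone, where that library is assumed to vary like WT, and fits with the hair shaft or the skeletal muscle score each gave 0 higher and 0 lower (0 and 0). With 1 library in a group, the median standard error of the 17 genes rose from 0.20 to 0.38. With the hair shaft score, which separates the groups, it was 0.24. It was 0.27 with the skeletal muscle score, which overlapped between them (8.64 to 10.73 in WT and 8.02 to 8.85 in Zfp36ΔARE skin).

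The pairing check gave no sign that replicate numbers pair the mice, but cannot exclude it. With the replicate number as a block there were 5 higher and 4 lower (2 and 2 with a fold over 2). Calls over all genes were 2740 in place of 5335, and the fewer calls are not read as a weaker effect.

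Log2 fold changes that changed sign, all of genes that were not called, were as follows, and the cause was not tested. Leaving out 1 library, Lgr4 ranged from -0.047 (WT replicate 3) to 0.15, with -0.039 without Zfp36ΔARE replicate 1. Without WT replicates 1 and 3 it had -0.090 and Rspo1 0.036. Against Zfp36ΔARE replicate 1 alone, Wnt5b had 0.28, Dkk3 0.24, Fzd8 0.21, Wnt10b -0.055, Wif1 -0.21, Rspo2 -0.63 and Wnt8a -0.74. With the hair shaft score, Rspo1 had 0.11, Sfrp2 0.078, Wnt7b 0.036, Fzd6 -0.033, Fzd2 -0.067, Fzd1 -0.20, Sfrp1 -0.23 and Lgr4 -0.26. With the skeletal muscle score, Rspo1 had 0.25, Sfrp2 0.13, Fzd7 -0.00084, Lrp6 -0.015, Fzd5 -0.060, Fzd6 -0.084, Fzd2 -0.097, Fzd1 -0.25, Sfrp1 -0.28 and Lgr4 -0.31. Depth limits Wnt2b, Wnt8a and the 6 genes that could not be tested, all with few counts.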

Other observations

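Some genes, called or not, varied together within the Zfp36ΔARE group, which was noticed after their values were seen and is given as values only. Replicates 2, 3 and 5 had the 3 highest normalized counts of the group for Wif1 (1371, 1219 and 1396, against 722 and 746 in replicates 1 and 4), for Rspo2 (89.6, 74.7 and 84.4, against 22.5 and 29.4) and for Wnt10b (753, 452 and 737, against 395 and 376). The same libraries were the 3 highest for Rspo3 (114, 95.5 and 111, against 79.4 and 60.1) and for Axin2. They were so too for Wnt5a, Wnt8a, Wnt10a, Fzd10, Rspo1, Sfrp2 and Sfrp5, and the share of all genes with this order was not counted. In WT skin, replicates 1 and 5 were the highest for Wif1 (1145 and 1144), Rspo2 (56.2 and 47.5) and Wnt10b (479 and 528). Rspo3 and Axin2 did not share this WT order. Rspo3 was highest in WT replicate 3 (75.7), and Axin2 in WT replicate 5 (1309) with WT replicate 1 at 1160. Dermal papilla scores were 4.07, 4.05 and 4.11 in Zfp36ΔARE replicates 2, 3 and 5 and 3.65 and 3.73 in replicates 1 and 4, and 4.32 and 4.10 in WT replicates 1 and 5 against 3.88 to 3.96 in the other WT libraries. Dkk4, which had too few counts to be tested (39 in all), was also highest in Zfp36ΔARE replicates 3 and 5.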
